A study of Mus musculus with 8 samples.

Results

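The genes of the mitochondrial ribosomal proteins were examined in the dorsal dentate gyrus of wild-type mice and mice lacking Cav3.1, a T-type calcium channel. Members were all genes whose symbol in the platform annotation starts with Mrpl or Mrps followed by a digit, leaving out pseudogene symbols that contain -ps, and the probe brightest on average over the 8 arrays stood for its gene. The rule gave 78 genes on 81 probes, of 19321 genes with a symbol on the array. Tissue came from male C57BL/6J mice, 8 to 12 weeks old, and 4 arrays were of wild-type animals (WT) and 4 of Cav3.1 knockout animals (Cav3.1 KO). Both groups were intact brains with no treatment named, and no source used here describes the deleted allele. Each array measured RNA from dissected tissue with a single colour, Cy5, on a TORAY chip. The labels count slices and do not say whether arrays are of separate animals. P-values therefore measure only the variation among these samples, and some of it may be technical. All 78 genes were detected on all 8 arrays. None of them differed between the groups at an adjusted p under 0.05 (limma, Benjamini-Hochberg over 21150 probes), and with the offset normalisation used here every difference lay between -0.19 and 0.21 on the log2 scale. On the authors' deposited intensities, which carry no such offset, the differences ran from -0.40 to 0.18.

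Mitochondrial ribosomes make the few proteins encoded by mitochondrial DNA, which are core subunits of the respiratory chain and ATP synthase. Their RNA comes from mitochondrial DNA, and all their proteins are encoded in the nucleus, made in the cytosol and imported. A part of these proteins has bacterial counterparts, and the rest was acquired in the mitochondrial lineage. Neurons depend on respiration for the ATP that drives ion pumping and transmission. Of the 78 genes, 51 encode proteins of the large subunit, 30 of them with a bacterial counterpart and 21 specific to mitochondria. A further 26 encode proteins of the small subunit, 16 classed with a bacterial counterpart and 10 as specific to mitochondria. Mrps18a and Mrps18b were classed as specific to mitochondria, although they are paralogues of Mrps18c, which was classed with a bacterial counterpart. Mrps30 and Mrps18a were counted with the large subunit, where their proteins sit despite the names. Mrps36 was kept apart because its protein is now described as a subunit of the alpha-ketoglutarate dehydrogenase complex.

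Mean intensities of the blank spots ranged from 53.0 to 59.7 on WT arrays and from 56.2 to 63.4 on KO arrays, and 85.4% to 93.0% of probes were detected on an array. WT replicate 3 and Cav3.1 KO replicate 4 carried later array serial numbers than the other 6 arrays. The file headers give slopes between the scan gains that fall into 2 sets, at 0.244 to 0.247 on WT replicates 1, 2 and 4 and Cav3.1 KO replicate 1 (gain set A) and at 0.235 to 0.236 on the others (gain set B). The gain sets therefore overlap in part with the groups. The probe for Cacna1g, the gene of Cav3.1, differed by -0.08 (SE 0.0508, limma adjusted p = 0.816) and did not separate the genotypes. Its spot was at 1.66 times the blank, where the offset understates differences. With plain subtraction of the blank it differed by -0.20 (limma adjusted p = 0.855), and on the authors' deposited intensities by -0.24 (0.782). No source used here says whether the probe lies in the deleted sequence. Markers of dentate granule neurons, all 12 tested, had a mean level of 7.28 to 7.36 on the WT arrays and 7.13 to 7.26 on the KO arrays. Of the 12, 8 were lower, and only C1ql2 was called, at -0.57 (SE 0.0509, limma adjusted p = 0.00650). Groups did not overlap for 5 of the 12, against 4.95% of all probes. Among these, Trpc6 was lower by 0.57 and Calb1 higher by 0.34, neither past the test. Markers of thalamus and habenula, 11 of 12 tested, ranged from 6.90 to 7.46 on WT arrays and from 7.07 to 7.96 on KO arrays, with 0 called. Only 2 of the 11 were lower in Cav3.1 KO, and the median difference was 0.23. Slc17a6 alone had groups that did not overlap, at 0.95 (SE 0.300, limma adjusted p = 0.380). All 9 microglial markers tested had lower means in Cav3.1 KO. So did 7 of 8 oligodendrocyte, 7 of 8 choroid plexus and ependyma and 7 of 9 meningeal markers, with 0 called in these lists. Groups did not overlap for 2 of the 9 microglial markers, C1qc and Fcrls, against 4.95% of all probes. They overlapped for all oligodendrocyte, choroid plexus and ependyma and meningeal markers tested. Of 9 endothelial and pericyte markers 5 were lower, and Cldn5 fell by 0.79 (SE 0.0922, limma adjusted p = 0.0182). Of 9 astrocyte markers 2 were lower, and Gjb6 rose by 0.38 (SE 0.0481, limma adjusted p = 0.0269). In RNA from whole tissue, fewer cells of a type and less RNA per cell cannot be told apart, and the part of tissue makeup in the values below was not tested.

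RefSeq promoters, 250 bases before to 50 bases after each start in GRCm38.p6, were found for 69 of the 78 genes (75 promoters). Those not matched were Mrpl13, Mrpl15, Mrpl19, Mrpl38, Mrpl4, Mrpl54, Mrps28, Mrps34 and Mrps35. Promoters are printed for the 3 genes with the smallest unadjusted p among those matched, Mrps18b, Mrps15 and Mrps26, and for Mrpl42, the large-subunit gene with the lowest difference. Capitals mark TGCGCA, the core of the motif of NRF1, a factor named for nuclear genes of respiration; CCGGAAG or its complement CTTCCGG, the motif of ETS factors such as GABPA; and AAGATGGC, the motif of YY1. The Mrps18b window (chr17:35916391-35916690, minus strand) held the NRF1 core at 2 places and the ETS motif at its end. The Mrps26 window (chr2:130563507-130563806, plus strand) held 1 ETS motif. The Mrps15 window (chr4:126046678-126046977, plus strand) held none of the 3, and the Mrpl42 window (chr10:95501900-95502199, minus strand) held the YY1 motif just past the start.
Mrps18b: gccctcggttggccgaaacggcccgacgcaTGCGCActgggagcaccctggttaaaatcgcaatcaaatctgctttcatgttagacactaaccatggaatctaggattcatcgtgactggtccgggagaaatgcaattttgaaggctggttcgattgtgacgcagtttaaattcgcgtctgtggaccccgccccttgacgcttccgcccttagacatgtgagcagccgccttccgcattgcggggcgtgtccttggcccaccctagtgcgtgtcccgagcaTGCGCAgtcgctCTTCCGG
Mrps26: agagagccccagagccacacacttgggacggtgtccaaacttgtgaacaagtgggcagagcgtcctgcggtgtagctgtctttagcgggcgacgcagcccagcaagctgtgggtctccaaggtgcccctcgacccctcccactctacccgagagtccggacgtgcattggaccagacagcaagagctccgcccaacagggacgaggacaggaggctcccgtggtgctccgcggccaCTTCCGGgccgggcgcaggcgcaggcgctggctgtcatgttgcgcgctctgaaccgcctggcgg
Mrps15: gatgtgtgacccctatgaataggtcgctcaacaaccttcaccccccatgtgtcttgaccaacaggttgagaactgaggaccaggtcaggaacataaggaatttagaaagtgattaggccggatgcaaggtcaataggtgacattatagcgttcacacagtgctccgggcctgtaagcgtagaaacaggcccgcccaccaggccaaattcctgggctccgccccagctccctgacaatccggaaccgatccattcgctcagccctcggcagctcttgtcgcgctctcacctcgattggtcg
Mrpl42: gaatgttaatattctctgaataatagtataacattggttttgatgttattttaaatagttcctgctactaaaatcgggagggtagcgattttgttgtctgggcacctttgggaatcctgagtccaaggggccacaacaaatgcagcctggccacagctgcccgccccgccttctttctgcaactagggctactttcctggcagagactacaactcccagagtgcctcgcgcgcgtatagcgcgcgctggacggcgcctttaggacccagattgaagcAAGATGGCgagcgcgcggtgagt

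Searched on both strands, the NRF1 core lay in 22 of the 75 member promoters (29.3%), against 7.8% of all 32851 promoters in the table and 9.7% of the 21263 of protein-coding genes. The longer NRF1 motif lay in 17.3%, against 4.6% of all and 6.4% of protein-coding promoters. The ETS motif lay in 34.7%, against 8.9% of all and 11.6% of protein-coding promoters. The YY1 motif lay in 12 of the 75, against 2.7% of all. The GC box GGGCGG lay in 52.0%, against 35.7% of all and 46.2% of protein-coding promoters, and CCAAT in 30 of the 75 against 37.4% of all. The TATA motif TATAAA was the one with a lower share among members, at 6.7% against 13.6%. Taken per gene, 39 of 69 had the NRF1 core or the ETS motif, 8 had both and 30 had neither. The median GC content was 58.7% in member promoters and 56.3% in protein-coding promoters, and no test was made of these shares. The 21 genes with the NRF1 core had a median difference of -0.05 between Cav3.1 KO and WT, against -0.01 in the 48 without it. Those 48 include Mrpl12, Mrpl14, Mrpl30, Mrpl39, Mrps21 and Mrps26, which held the longer NRF1 motif. The 26 genes with the ETS motif had a median of -0.01, against -0.02 in the 43 without. A match describes the letters of the window and does not show that a factor binds there.

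Probes for these genes were bright. Their spots had 1.16 to 44.7 times the mean blank intensity, with a median of 8.50 against 1.52 for all probes, and 57 of the 78 were at least 5 times as bright. The median normalised level of the members, 8.90 on the log2 scale, lay above 88.7% of all probes tested. Levels of different probes are not an order of transcript abundance, since probes differ in brightness for other reasons. The brightest spots were those of Mrps33, Mrpl42 and Mrpl20, at 44.7, 32.6 and 31.9 times the blank. The dimmest were those of Mrpl15, Mrpl33 and Mrpl41, at 1.16, 1.18 and 1.19 times the blank, where little of the signal is above the blank level. These 3 genes differed by -0.06, -0.00 and 0.02 with the offset, by -0.35, -0.04 and 0.03 with plain subtraction of the mean blank, and by -0.40, -0.10 and -0.02 on the authors' deposited intensities. None of these passed the test.

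Over the 78 genes, the 28 pairs of arrays correlated with r between 0.982 and 0.995, against 0.991 to 0.997 over all probes tested, and all pairs share the brightness of the probes. The median absolute difference between 2 arrays ranged from 0.0579 to 0.176, with a median of 0.106 for the 12 pairs within a group and 0.0998 for the 16 pairs between groups. Arrays of different genotype were thus about as far apart on these genes as arrays of the same genotype. The SD within groups had a median of 0.102 over the members, against 0.0814 over the 16347 probes between the dimmest and the brightest member. Most probes in that range were dimmer than the median member, and the offset narrows the spread of dim probes. Spread was not compared with probes matched for brightness. It was narrowest for Mrpl33, Mrps27, Mrpl17 and Mrpl3 (from 0.0305 for Mrpl33 upwards) and widest for Mrps23, Mrpl50, Mrpl10 and Mrps21 (0.236, 0.219, 0.215 and 0.213). Mrpl3, whose protein reaches towards the site of peptide bond formation, gave 9.19, 9.24, 9.27 and 9.21 in WT and 9.21, 9.31, 9.16 and 9.23 in Cav3.1 KO. Mrps23 spanned 8.08 to 8.79 within the WT group alone. The narrow SD of Mrpl33 belongs to a spot close to the blank level.

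**Figure D1:**
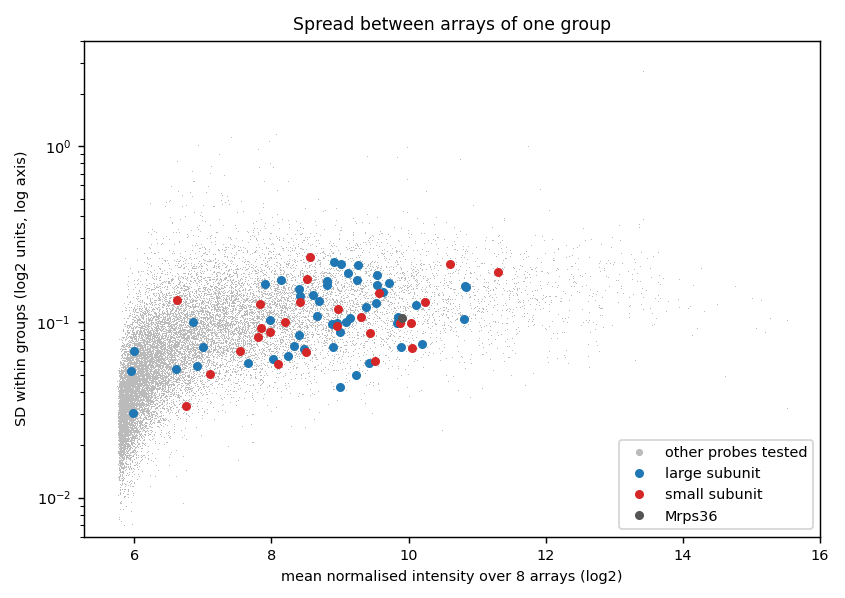
Mean normalised intensity over the 8 arrays (x axis, log2) against the SD within groups (y axis, log2 units on a log axis) for the large-subunit genes (blue), small-subunit genes (red), Mrps36 (dark grey) and the other probes tested (light grey). Members sit to the right of most probes, with SDs from 0.0305 to 0.236.

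The members' deviations from their own means over the 8 arrays showed which arrays stood apart. The median deviation was 0.00, -0.04, 0.04 and 0.00 on WT replicates 1 to 4 and 0.02, 0.01, -0.02 and -0.04 on Cav3.1 KO replicates 1 to 4. WT replicate 3 had 54 of 78 genes above their own mean, and Cav3.1 KO replicate 4 had 22; these are the 2 arrays with later serial numbers. WT replicate 2 had the lowest value of all arrays for 21 genes, and Cav3.1 KO replicate 1 had the highest for 18 and the lowest for 13. Averaged over the 78 genes, the WT level was 8.77 ± 0.0374 (SD, n = 4) and the KO level 8.75 ± 0.0255 (SD, n = 4), and the 4 KO values lay within the range of the WT values. Cytosolic ribosomal protein genes were lowest on the same WT replicate 2, with a median deviation of -0.21, against 0.07 to 0.10 on the other WT arrays. Respiratory chain subunits had -0.08 there.

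**Figure D2:**
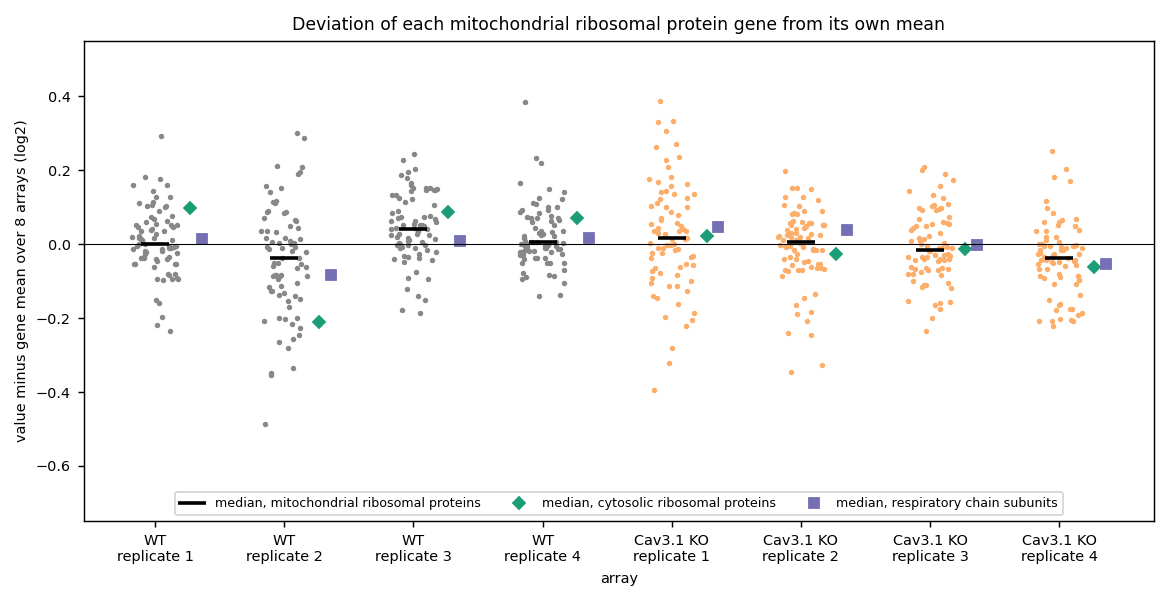
Each point is 1 mitochondrial ribosomal protein gene on 1 array, as its value minus its own mean over the 8 arrays (y axis, log2); WT points are grey and Cav3.1 KO points orange. Black bars are the members' medians, from -0.04 to 0.04, diamonds the medians of cytosolic ribosomal protein genes and squares those of respiratory chain subunits.

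The comparison of Cav3.1 KO with WT asked whether loss of the channel went with a different level of these transcripts. The limma fit called 0 of the 78 genes, against 61 of 21150 probes (0.288%). At an unadjusted p under 0.05 there were 4 members (5.13%), against 8.1% of all probes. The 4 WT and 4 Cav3.1 KO values did not overlap for 1 member, Mrps18b, which is lower in Cav3.1 KO, against 4.95% of all probes in either direction and 2.53% lower in Cav3.1 KO. All 3 shares were no higher than the background. The 95% interval of the difference lay within a 1.5-fold change in either direction for all 78 genes, as it did for 98.4% of all probes. Within 1.2-fold it lay for 52 of the 78 genes, against 79.9% of all probes. The intervals had a median half-width of 0.15 and a largest of 0.33 on the log2 scale. With plain subtraction of the blank level, which widens the differences of dim genes, 76 genes stayed within 1.5-fold and 22 within 1.2-fold, and on the authors' deposited intensities 75 and 3 did. Of all probes, 72.8% and 71.0% stayed within 1.5-fold on these 2 scales.

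The differences had no common direction that held across scalings and subsets of arrays. With quantile normalisation 47 genes were lower in Cav3.1 KO and 31 higher (60.3% lower, against 50.7% of all probes), with a median difference of -0.02. With median scaling 64 were lower and the median was -0.06. That is 82.1%, against 57.1% of the probes between the dimmest and the brightest member, most of them dimmer than the median member. On the authors' deposited intensities 68 were lower (87.2%), with a median of -0.10, where 66.1% of all probes were lower too and their median was -0.06. Within the 6 arrays of the first serial numbers 36 were lower, and between the 2 later arrays 62 were. Leaving out WT replicate 3 or Cav3.1 KO replicate 4 gave 40 and 39 lower, with medians of -0.00 and 0.00. Gain set A holds 1 KO array against 3 WT arrays, and 34 were lower there, with a median of 0.03. Gain set B holds 1 WT array against 3 KO arrays, and 58 were lower there, with a median of -0.05. With the gain set as a block, 45 were lower, 10 had an unadjusted p under 0.05 (12.8%, against 9.98% of all probes) and 0 were called (0.109% of all probes).

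**Figure D3:**
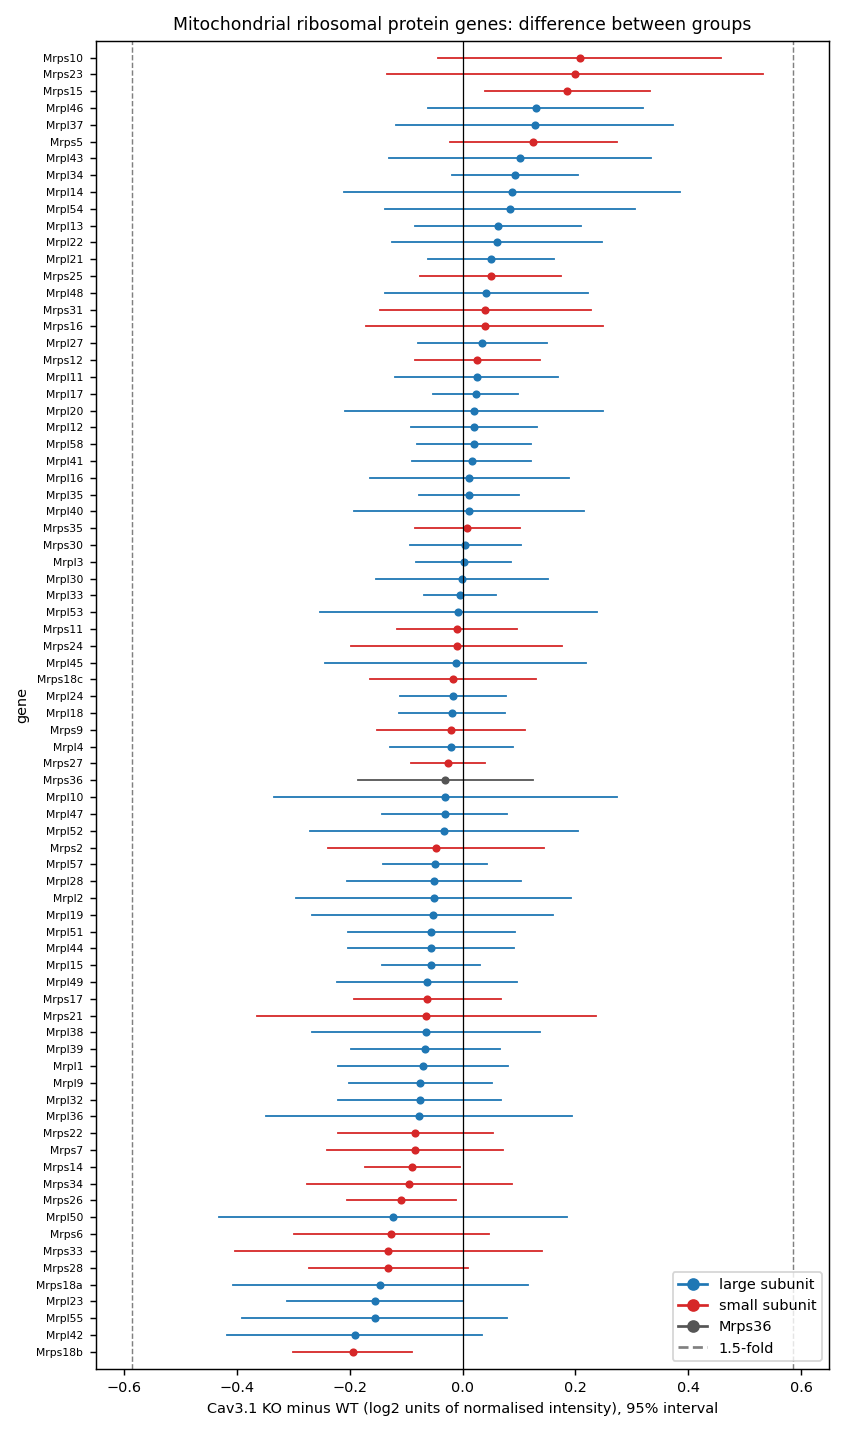
Difference between Cav3.1 KO and WT (x axis, log2 units) for the 78 genes, ordered by difference, with 95% intervals from limma; large-subunit genes are blue, small-subunit genes red and Mrps36 grey. No interval reaches the dashed lines at a 1.5-fold change, and the points run from -0.19 to 0.21.

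Among the 26 small-subunit genes, 17 had a lower KO mean and 9 a higher one, with a median difference of -0.02, and all 4 members with an unadjusted p under 0.05 were in this subunit. Mrps18b, 1 of 3 paralogues related to bacterial protein S18, gave 7.55, 7.60, 7.69 and 7.70 in WT and 7.38, 7.49, 7.51 and 7.40 in Cav3.1 KO. Every Cav3.1 KO value lay below every WT value. The difference was -0.19 (SE 0.0461), with an unadjusted limma p of 0.00277, an adjusted p of 0.211 and a p of 0.0286 in an exact two-sided permutation test, which can go no lower with 4 arrays a group. It was -0.24 within gain set A and -0.23 within gain set B, -0.16 within the first serial numbers and -0.30 between the later arrays. Its adjusted p with the gain set as a block was 0.185. The spot of Mrps18b was at 3.35 times the blank. With plain subtraction of the blank the gene differed by -0.27 (limma adjusted p = 0.497), and on the authors' deposited intensities by -0.33 (0.505). The paralogue Mrps18c differed by -0.02 (SE 0.0637), and Mrps18a, whose protein sits in the large subunit, by -0.15 (SE 0.114), both with overlapping groups.

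Mrps26, a small-subunit protein specific to mitochondria, gave 9.49, 9.60, 9.66 and 9.51 in WT and 9.48, 9.50, 9.43 and 9.42 in Cav3.1 KO. The groups overlapped only through WT replicate 1 and Cav3.1 KO replicate 2, and the difference was -0.11 (SE 0.0417, limma adjusted p = 0.541). Mrps14, a protein of the small subunit's head, gave 7.13, 7.23, 7.15 and 7.12 in WT and 7.01, 7.06, 7.13 and 7.06 in Cav3.1 KO. Cav3.1 KO replicate 3 lay among the WT values, and the difference was -0.09 (SE 0.0368, limma adjusted p = 0.587). Mrps28 differed by -0.13 (SE 0.0613), from 0.01 within gain set A to -0.34 within gain set B.

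Mrps15, a protein of the small subunit's platform that binds its RNA, had the smallest p in the other direction. It gave 9.86, 9.72, 9.69 and 9.85 in WT and 10.11, 9.98, 9.93 and 9.84 in Cav3.1 KO. Cav3.1 KO replicate 4 lay below WT replicates 1 and 4, and the other 3 KO arrays lay above all WT arrays. The difference was 0.19 (SE 0.0634, limma adjusted p = 0.435), and 0.26 with an adjusted p of 0.184 with the gain set as a block, the smallest adjusted p of any member under any setting. Mrps10 differed by 0.21 (SE 0.109), with WT replicates 1 and 2 at 8.28 and 8.16 and the other 6 arrays between 8.53 and 8.77. Mrps5 differed by 0.13 (SE 0.0644) and Mrps23 by 0.20 (SE 0.145), neither past the test. Mrps12, of the decoding centre, differed by 0.03 (SE 0.0480), and Mrps16 by 0.04 (SE 0.0916). Mrps22 and Mrps34, in which human variants cause mitochondrial disease, differed by -0.08 (SE 0.0600) and -0.09 (SE 0.0793), with all 4 WT values of Mrps34 between 7.82 and 7.92 and the KO values between 7.65 and 8.02.

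**Figure D4:**
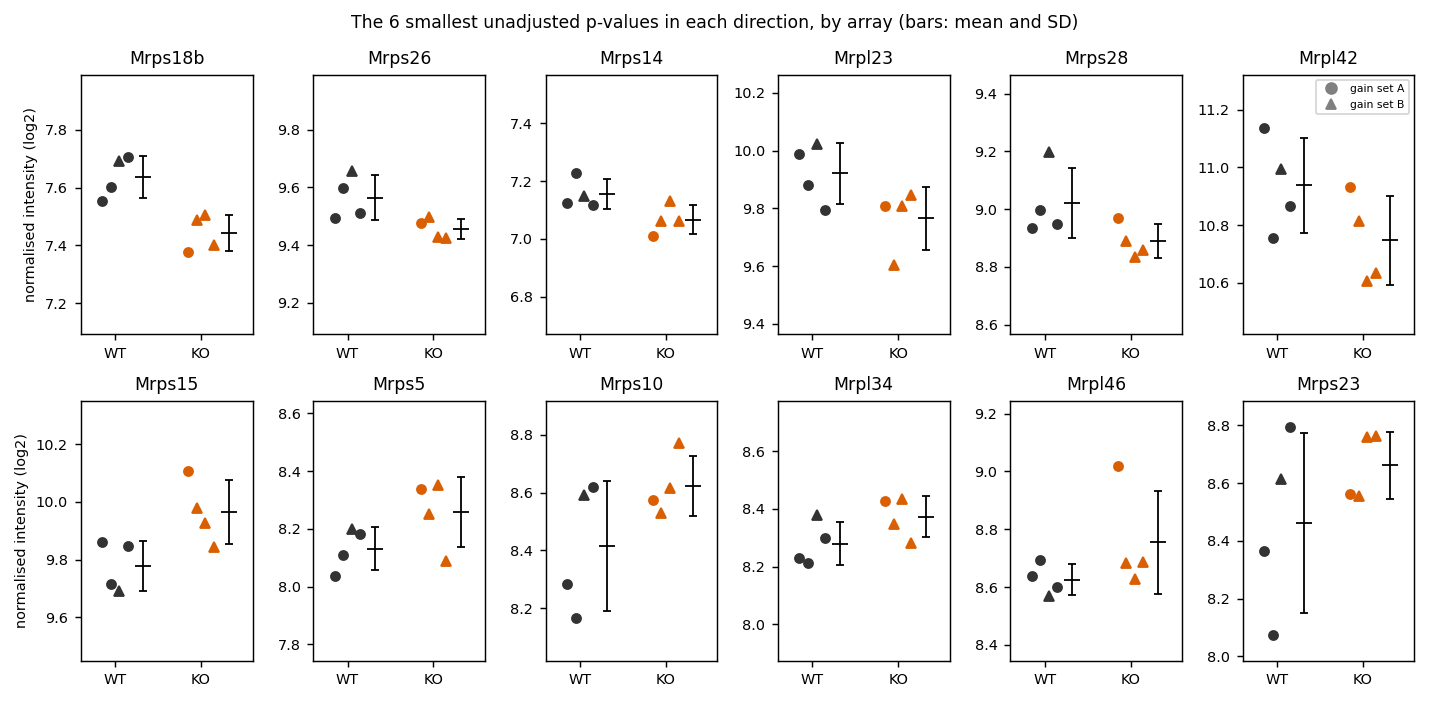
Normalised intensity (y axis, log2, the same span in every panel) on each array for the 6 genes with the smallest unadjusted p in each direction, lower in Cav3.1 KO in the top panels and higher in the bottom panels. Circles are arrays of gain set A, triangles arrays of gain set B, and bars the mean and SD of 4 arrays; the groups are apart for Mrps18b and overlap for the other 11 genes.

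Among the 51 large-subunit genes, 29 had a lower mean in Cav3.1 KO and 22 a higher one, with a median difference of -0.01 and 0 genes at an unadjusted p under 0.05. A difference between the subunits was not tested. Mrpl23, a protein at the exit of the peptide tunnel, gave 9.99, 9.88, 10.02 and 9.79 in WT and 9.81, 9.60, 9.81 and 9.84 in Cav3.1 KO. WT replicate 4 lay below 3 of the KO arrays, and the difference was -0.15 (SE 0.0679, limma adjusted p = 0.622). Mrpl42 gave 11.14, 10.76, 10.99 and 10.87 in WT and 10.93, 10.82, 10.61 and 10.64 in Cav3.1 KO, and the groups differed by -0.19 (SE 0.0984, limma adjusted p = 0.724) while overlapping. It was 0.02 within gain set A and -0.31 within gain set B. In the other direction, Mrpl46 gave 8.64, 8.69, 8.57 and 8.60 in WT and 9.02, 8.68, 8.63 and 8.69 in Cav3.1 KO. Its difference of 0.13 (SE 0.0828) rested mostly on Cav3.1 KO replicate 1 and was 0.04 without it. Mrpl34 differed by 0.09 (SE 0.0487).

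The stalk of the large subunit recruits the translation factors, and its genes showed no difference past the test. Mrpl12, whose protein also binds mitochondrial RNA polymerase, gave 9.88, 9.76, 9.91 and 9.95 in WT and 9.83, 9.94, 9.95 and 9.86 in Cav3.1 KO, or 0.02 more (SE 0.0485). Mrpl11 differed by 0.02 (SE 0.0630). Mrpl10 differed by -0.03 (SE 0.132), with Cav3.1 KO replicate 1 at 9.40 above all other arrays. Mrpl45, at the tunnel exit facing the inner membrane, differed by -0.01 (SE 0.101), and Mrpl44, with a fold related to ribonuclease III, by -0.06 (SE 0.0639). Mrps30 differed by 0.00 (SE 0.0428). Mrpl58, a peptidyl-tRNA hydrolase that can rescue stalled ribosomes, differed by 0.02 (SE 0.0440). Of the bright genes, Mrpl20 differed by 0.02 (SE 0.0994) and Mrps33 by -0.13 (SE 0.118). Mrps36 differed by -0.03 (SE 0.0674). Of the genes with the widest or narrowest spread, Mrpl50 differed by -0.12, Mrps27 by -0.03 and Mrpl17 by 0.02. For the 40 members outside the naming rule, no unadjusted p was under 0.05 and the differences ran from -0.16 to 0.13.

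Both probes of a gene gave the same sign for the 3 genes with a second probe. Mrpl47 differed by -0.03 on the brighter probe and -0.07 on the other, Mrpl48 by 0.04 and 0.06, and Mrps21 by -0.06 and -0.01. The 4 members within 10 Mb of Cacna1g were Mrpl10, Mrpl27, Mrpl45 and Mrps23. Of these 0 were called and 2 were lower.

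Many members start close to a neighbour on the opposite strand. In the RefSeq table, 26 of 69 genes (37.7%) had such a start within 1000 bases, against 2302 of 17492 protein-coding genes (13.2%). In 1 case both genes are members: the starts of Mrpl46 and Mrps11 lie 42 bases apart, and the genes differed by 0.13 and -0.01. Other partners serve mitochondria too. Mrpl43 lies 116 bases from Twnk, the helicase of mitochondrial DNA (0.10 and -0.11), Mrps12 lies 147 bases from Sars2, a mitochondrial aminoacyl-tRNA synthetase (0.03 and 0.01), and Mrpl47 lies 308 bases from Ndufb5, a subunit of complex I (-0.03 and 0.02). Mrps18b lies 756 bases from Ppp1r10, a nuclear regulator of protein phosphatase, which differed by 0.01 (SE 0.0317). Of the 25 partners tested, 0 were called (limma) and 12 had the same sign as the member.

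The other genes of the pathway were taken from lists by function. In the list of mitoribosome assembly and modification of its RNA, 1 of 27 genes tested rose and 1 fell. The other 25 did not pass the test, and the median difference was -0.01. Mtg1, a GTPase of the mitochondria that acts in assembly of the large subunit, gave 8.55, 8.46, 8.47 and 8.62 in WT and 9.10, 8.91, 9.04 and 9.04 in Cav3.1 KO. Every KO array lay above every WT array. The mean rose from 8.53 ± 0.0737 to 9.02 ± 0.0790 (SD, n = 4 each), a difference of 0.50 (SE 0.0507, 95% interval 0.380 to 0.613, limma adjusted p = 0.0102) or 1.41-fold. The call was kept when any 1 array was left out (adjusted p 0.00783 to 0.0473) and with the gain set as a block (0.0309). It was lost with plain subtraction of the blank level (adjusted p = 0.0596), on the authors' deposited intensities (0.205), within the first serial numbers (0.169) and without Cav3.1 KO replicates 2 and 3 (0.0598), with differences of 0.57, 0.50, 0.47 and 0.54. It was also lost with the replicate number as a block (0.0683) and within gain sets A and B (0.365 and 0.608), where the differences were 0.54 and 0.53.

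Fastkd5 was placed in the same list, although it acts in the processing of mitochondrial RNA. It gave 7.58, 7.59, 7.60 and 7.57 in WT and 7.23, 7.37, 7.21 and 7.30 in Cav3.1 KO. The groups did not overlap, and the difference was -0.30 (SE 0.0377, 95% interval -0.391 to -0.218, limma adjusted p = 0.0235), at 3.13 times the blank level. The call was lost on leaving out any 1 array other than Cav3.1 KO replicate 2 (adjusted p 0.0135 without that array, up to 0.0959 without others), while the difference stayed between -0.33 and -0.28. It was also lost with the gain set as a block (0.0684), the replicate number as a block (0.169) and median scaling (0.0905), and without Cav3.1 KO replicates 2 and 3 (0.0712). Within the first serial numbers the adjusted p was 0.238, and within gain sets A and B it was 0.348 and 0.641. With the blank level subtracted, Fastkd5 differed by -0.44 (adjusted p = 0.147), and on the authors' deposited intensities by -0.50 (0.208).

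The remaining lists held 0 called genes. The list of mitoribosome proteins with other symbols had 4 of 6 symbols on the array. Aurkaip1 was not found, and Ict1 is an older symbol of Mrpl58, which is a member and given above. Dap3, a GTP-binding protein of the small subunit, gave 9.47, 9.59, 9.59 and 9.60 in WT and 8.73, 9.54, 9.57 and 9.64 in Cav3.1 KO, and its difference of -0.19 (SE 0.188) came from Cav3.1 KO replicate 1 alone. Of 17 genes tested in the list of translation factors 9 were lower, with Guf1, a GTPase of elongation, at -0.07 (SE 0.0348). Lrpprc, Slirp, Oxa1l and Cox18 in this list are not translation factors themselves. Of 21 genes tested in the list of mitochondrial aminoacyl-tRNA synthetases 13 were lower. Qrsl1, Gatb and Gatc in this list are not synthetases. Cars2, which charges the tRNA of cysteine, had groups that did not overlap but an adjusted p of 0.377 in limma (-0.17, SE 0.0540). Of 19 genes of mitochondrial transcription and replication 12 were lower, with Trmt10c, part of mitochondrial RNase P, at 0.15 (SE 0.0704). Of 10 nuclear regulators 6 were lower, with Tfam, which packages mitochondrial DNA and starts its transcription, at -0.08 (SE 0.0471). Of 12 proteases and chaperones 5 were lower, with Yme1l1, an inner membrane protease, at -0.14 (SE 0.0636).

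The cytosolic ribosome and the respiratory chain had 0 called genes as well. The list drawn by symbol held 67 cytosolic genes tested, of which Rps19bp1 encodes a binding partner of a ribosomal protein and not a ribosomal protein itself. Of the other 66, 47 had a lower KO mean, their median being -0.04, and 6 had an unadjusted p under 0.05. Rps4x, of the small cytosolic subunit, gave 12.97, 12.81, 12.90 and 12.98 in WT and 12.60, 12.66, 12.69 and 12.58 in Cav3.1 KO. The groups did not overlap, and the difference of -0.28 (SE 0.0456, limma adjusted p = 0.0681) passed only without WT replicate 2 (0.0380). Of 82 respiratory chain genes tested 38 were lower, with a median of 0.01, and 7 had an unadjusted p under 0.05. Cox7b2, a subunit isoform of cytochrome c oxidase, differed by -0.32 (SE 0.04996, limma adjusted p = 0.0609) with groups that did not overlap, on a spot at 1.55 times the blank. With plain subtraction of the blank it differed by -0.90 (adjusted p = 0.0738), and on the authors' deposited intensities by -0.96 (0.0939).

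**Figure D5:**
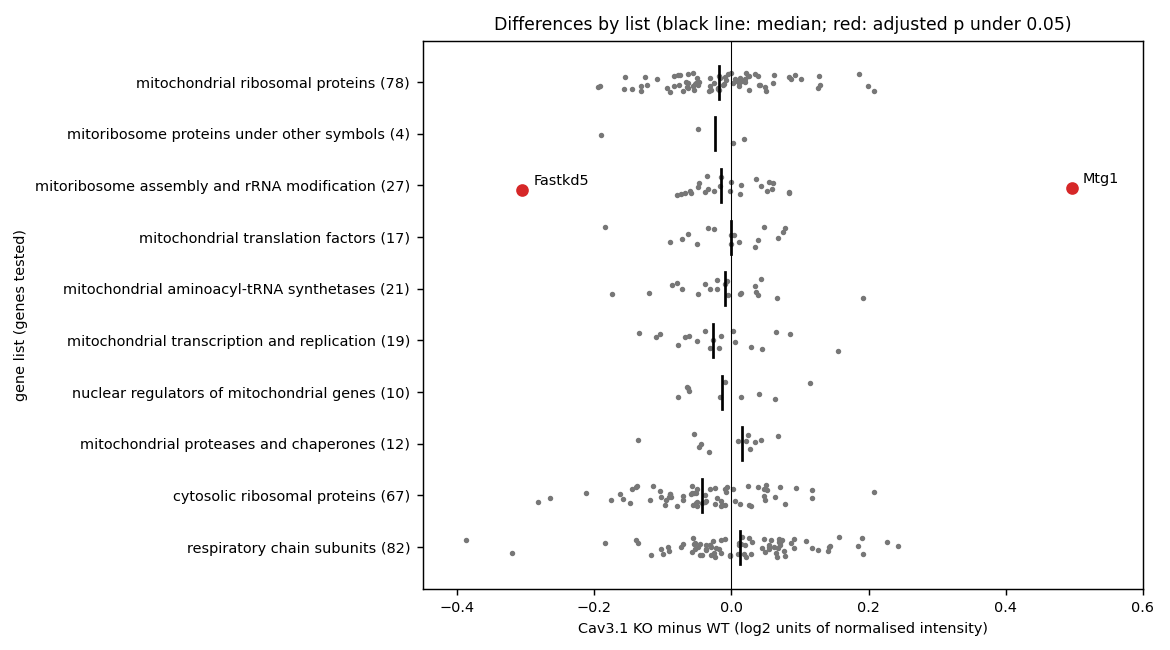
Difference between Cav3.1 KO and WT (x axis, log2 units) for each gene tested, by list (y axis, number of genes in brackets); black lines are medians. The red points, Mtg1 at 0.50 and Fastkd5 at -0.30, are the genes past the test, and on this scale all 78 mitochondrial ribosomal protein genes lie between -0.19 and 0.21.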

How the data were processed

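Per the file headers, the deposited scanner output holds the median spot intensity of each probe, merged from 3 scan gains and not normalised. The authors' deposited value table, an alternative here, gives intensity on a linear scale and matched blank-subtracted scanner values scaled to a common median. With R 4.3.3 and limma 3.58.1, spot intensities were corrected with normexp (offset 50, no local background, since the background column followed spot brightness), put on the log2 scale and quantile normalised. Differences of dim genes are understated by the offset. Probes above the 95th percentile of an array's 2736 blank spots on at least 4 of 8 arrays were kept, which left 21150 of 23473 (2239 were dim and 84 had a spot marked not good). Group means were compared with lmFit and eBayes and Benjamini-Hochberg adjustment over all probes tested; single values also by exact two-sided permutation over 70 arrangements. The number of arrays limits the precision. The script was tested on simulated data.

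The members and lists were chosen with earlier results of these data known. Named were genes of set roles, those not overlapping, the 6 smallest p in each direction, the widest and narrowest SD, the brightest and dimmest spots and genes with several probes; in each pathway list, called genes and the smallest p. Respiratory chain assembly factors and ribosomal S6 kinases were left out of the lists. Gene names and neighbours came from the RefSeq table of GRCm38.p6, which matched all 78 genes; no source used here names the array's own build. Alternatives covered scaling, background, filters, blocks, subsets of arrays and the deposited table.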

Additional observations from a re-analysis of the deposited data

Results flagged for a closer look

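In 8 of 102 groups of 4 arrays examined, 1 array stood far from the other 3. Its gap to the nearest, as a share of the group's whole range, passed Dixon's 95% critical value. Chance alone would give about 1 in 20 for genes picked without regard to their values. Many of the genes examined were named for their p or SD in these data, so that rate is no reference for them. Among the members, Mrps18c had WT replicate 2 at 9.87 and the other WT arrays between 10.09 and 10.13 (gap 0.8294 of the range). Mrps21 had the same array at 10.27 and the others between 10.74 and 10.79 (0.9084). Mrpl23 had Cav3.1 KO replicate 2 at 9.60 and the others between 9.81 and 9.84 (0.8413). Mrpl46 had Cav3.1 KO replicate 1 at 9.02 and the others between 8.63 and 8.69 (0.846).

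Among the other genes of the pathway, Cav3.1 KO replicate 1 was the low array in 3 KO groups. Dap3 was at 8.73 there and between 9.54 and 9.64 on the other KO arrays (0.8903), Cars2 at 6.79 against 6.96 to 6.98 (0.881), and Trmt10c at 8.23 against 8.46 to 8.48 (0.9243). Dap3 also had WT replicate 1 at 9.47 against 9.59 to 9.60 (0.8695).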

How the results depend on the processing

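No member was called under any of the 23 alternatives with a test, 2 of which, within the gain sets, leave 1 array in a group and assume that it varies like the others; the smallest adjusted p was 0.184. Of 38 named members, 14 kept their sign under all of them. Calls over all probes, 61 in the comparison as reported, fell to 8 with the replicate block, 7 within the first serial numbers, 17 without Cav3.1 KO replicates 2 and 3, 36 with median scaling, 31 on the deposited table, 23 with the gain set as a block, 0 within gain set A and 1 within gain set B, the last 3 chosen after seeing the data; they were 46 and 49 without WT replicate 2 and Cav3.1 KO replicate 1 and 16 to 37 without any other 1 array. The members' median difference of -0.0182 became -0.0793 between the later arrays, -0.0649 with median scaling, -0.0994 on the deposited table and 0.0317 within gain set A, and ranged from -0.04 to 0.00 without any 1 array. Members whose groups did not overlap, 1 as reported, were 2 with median scaling (3.82% of all probes), 2 with cyclic loess (5.04%) and 4 on the deposited table (5.56%). They were 2 to 4 without any 1 array (6.75% to 10.1%), 7 within the first serial numbers (12.0%) and 11 without Cav3.1 KO replicates 2 and 3 (16.7%). The members' shares, at most 14.1%, stayed below those of all probes in each of these. Within gain set A, where 1 KO array stands alone, the members' share was slightly above that of all probes. Within gain set B, where 1 WT array stands alone, it was slightly below. With 1 array alone in a group, the groups fail to overlap whenever that array is the highest or the lowest. A large share of all probes meets this, and the difference between the shares was not tested.

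Arrays of the same replicate number showed no sign of pairing. Their deviations correlated at -0.11, -0.08, -0.08 and 0.01, and 0 of them matched best with their own number. Correlations from so few pairs cannot exclude a pairing, and the labels name none. With the replicate block, 5 members had an unadjusted p under 0.05 and 0 were called, and Mtg1 and Fastkd5 had adjusted p of 0.0683 and 0.169 in limma. Signal over background limits Mrpl15, Mrpl33 and Mrpl41 most.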
